A study of Mus musculus with 9 samples.

Results

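The genes described here are 10 imprinted genes with roles in growth, namely H19, Igf2, Igf2r, Dlk1, Meg3, Peg3, Mest, Plagl1, Cdkn1c and Grb10. They were chosen by gene symbol, with earlier results of these data known. All 10 were found among the 16937 genes listed for brown adipose tissue (BAT) of 9 mice. The study placed adult mice at 4°C for 8 h (Cold) or kept them at 23°C room temperature (RT), and sequenced BAT from wild-type (WT) mice at RT, WT mice in the cold, and whole-body Gcn2-/- mice (GCN2 KO) in the cold, with 3 libraries per group. GCN2, encoded by Eif2ak4, is a kinase that phosphorylates eIF2 when amino acids run short. All mice were on the C57Bl/6J background and were housed individually, the groups held both males and females, and the sex behind each library was not used here. GCN2 KO mice at RT were not analysed here. The letters A, B and C below name the libraries of a group and pair nothing.

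The knockout label could not be checked by gene totals, since the libraries labelled GCN2 KO Cold, called labelled knockouts from here on, did not have less Eif2ak4. Its level in CPM, read counts scaled to a fixed library total, was 11.9, 12.7 and 11.8 in the labelled knockouts, 6.46, 8.31 and 8.34 in WT Cold, and 11.1, 12.6 and 13.03 in WT RT. A gene total does not show which exons were transcribed, so every direction drawn from the labelled knockouts rests on their label. The title of 1 of the 3 samples with that label names both GCN2 KO and WT and does not say Cold, its genotype label gives GCN2 KO, and which of the libraries it is was not given. Reads assigned to genes ranged from 27058799 to 30768064 per library. The codes of the WT RT libraries began with other letters than those of both cold groups, so that difference and cold exposure cannot be told apart.

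Genomic imprinting silences one parental copy of a gene through DNA methylation laid down in the egg or sperm, so that expression comes from the other copy. Paternally expressed members such as Igf2, Dlk1, Peg3, Mest and Plagl1 are studied as regulators of fetal growth and of precursor cells, while the maternally expressed H19, Igf2r, Cdkn1c, Grb10 and Meg3 include several that restrain growth or insulin signalling. Many are abundant before birth and much lower in adult tissues, with H19 kept up in skeletal muscle. Dlk1 marks preadipocytes, and Mest has been linked to the size of adipocytes.

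H19, Igf2, Mest and Meg3 each carry a microRNA on their own strand that is processed from, or transcribed with, the host RNA, and their mature sequences are shown because the reads below come from these hosts. The seed, bases 2 to 8, is in capitals, and sequences are 5′ to 3′ from RefSeq on GRCm38.p6. The hairpins Mir675 and Mir770 lie in exons of H19 and Meg3, while Mir483 and Mir335 lie in introns of Igf2 and Mest. All the seeds differ from each other. The libraries were enriched for polyadenylated RNA, so the mature microRNAs themselves were not measured.
mmu-miR-675-5p: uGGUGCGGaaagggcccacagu
mmu-miR-675-3p: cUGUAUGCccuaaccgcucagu
mmu-miR-483-5p: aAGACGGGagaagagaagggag
mmu-miR-483-3p: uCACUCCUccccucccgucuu
mmu-miR-335-5p: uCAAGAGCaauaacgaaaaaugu
mmu-miR-335-3p: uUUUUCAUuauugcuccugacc
mmu-miR-770-5p: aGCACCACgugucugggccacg
mmu-miR-770-3p: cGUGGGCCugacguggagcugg

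Levels between genes were compared per kb of merged exon (GENCODE M21, GRCm38). In WT RT, H19 stood at 18.9 CPM per kb, above 87.5% of 16806 genes, followed by Cdkn1c at 12.7 and Igf2r at 7.48. Peg3 was in the middle of all genes at 2.91 CPM per kb, and Igf2 (1.49), Grb10 (1.47), Mest (0.937), Meg3 (0.915), Dlk1 (0.457) and Plagl1 (0.3598) followed. The pairs Igf2 and Grb10, and Mest and Meg3, differed by less than the spread between their libraries. Reads were few under Dlk1 (18 to 97 per library), Mest (36 to 127) and Plagl1 (39 to 104). The level of Igf2 carries a further limit, since 64.5% of its annotated exon bases are shared with the genes Gm49394 and Igf2os, and reads that overlap several genes can be left uncounted.

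**Figure D1:**
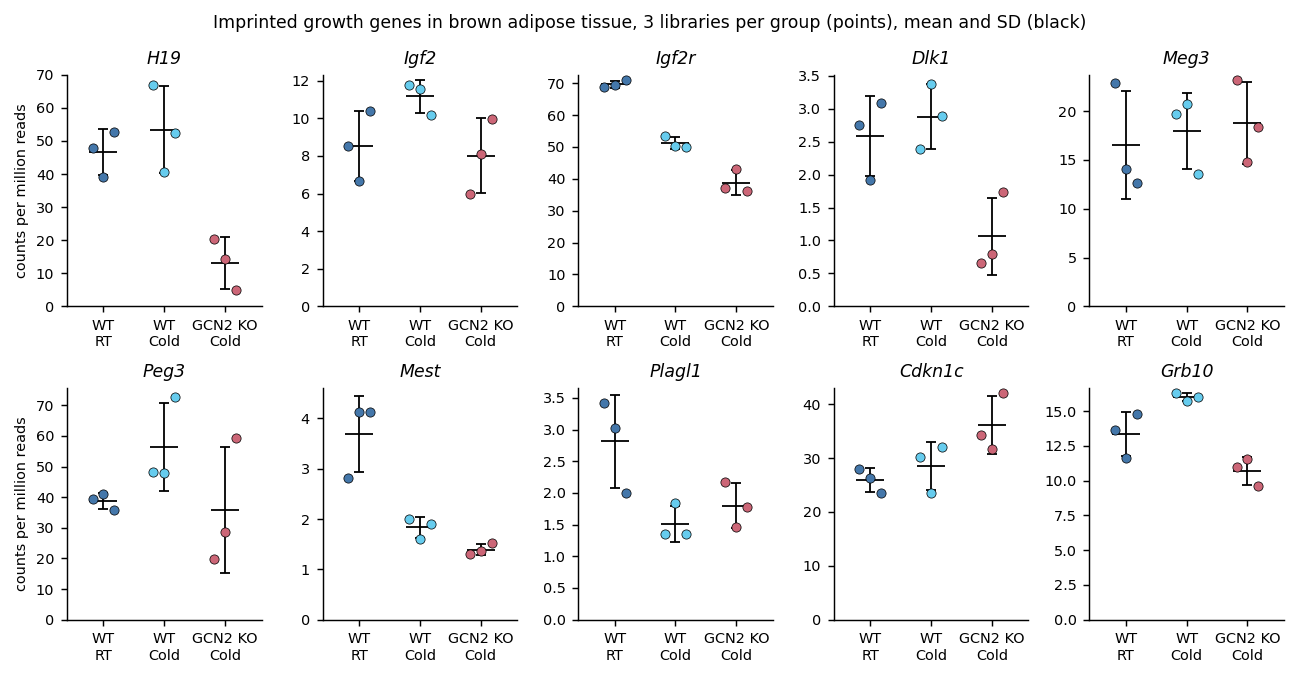
Level of each of the 10 imprinted growth genes in CPM (vertical axis, starting at 0) in the 9 libraries. Points are libraries, black bars the mean and SD of 3 libraries. H19 in the labelled knockouts (GCN2 KO Cold) lies between 4.84 and 20.4, below all 6 WT libraries, which lie between 39.1 and 66.9.

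Cold exposure in WT mice was compared first. By limma on log2(normalized count + 1) with adjustment over all genes, 3 of the 10 members passed an adjusted p of 0.05, beside 27.7% of all 16679 genes tested. Peg3 rose, and Igf2r and Mest fell. None of the 3 also passed the study's fold threshold of 1 on the log2 scale, which 8.14% of all genes did. The groups did not overlap for 6 members, higher in the cold for Igf2, Peg3 and Grb10 and lower for Igf2r, Mest and Plagl1, beside 45.5% of all genes. Igf2 is among them on the authors' scale, while in CPM its groups overlapped. The median log2 fold change was 0.24 over the members and 0.0029 over all genes.

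Between labelled knockouts and WT mice in the cold, 0 of the 10 members passed the test by limma, beside 0.405% of 16312 genes. At an unadjusted p of 0.05 the count was 5 by limma, by DESeq2 and by edgeR, beside 15.3% of all genes by limma. DESeq2 called 1 member at the adjusted threshold, H19, and edgeR called 0. The groups did not overlap for 5 members, of which 4 were lower in the labelled knockouts (H19, Dlk1, Grb10 and Igf2r) and 1 was higher (Cdkn1c). Over all genes 22% did not overlap, 10.7% lower and 11.3% higher. The members' median log2 fold change was -0.34, beside -0.0031 for all genes. The members were chosen with these results known, so none of these counts bears on whether imprinted genes stand apart.

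Against WT RT, with which the first comparison shares its controls, 4 of 10 members passed in the labelled knockouts, beside 34.2% of 16560 genes. H19, Mest and Igf2r fell and Cdkn1c rose. H19 and Mest also passed the fold threshold, as 10.6% of all genes did. The groups did not overlap for the same 4, beside 49.2% of all genes, 25.5% lower and 23.7% higher. The scale matters for small differences here. With CPM in place of the authors' size factors, the median of all genes moved by -0.08 in the first comparison, by -0.12 in the second and by -0.20 in the third, so the log2 fold changes below are relative to the typical gene of each comparison.

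**Figure D2:**
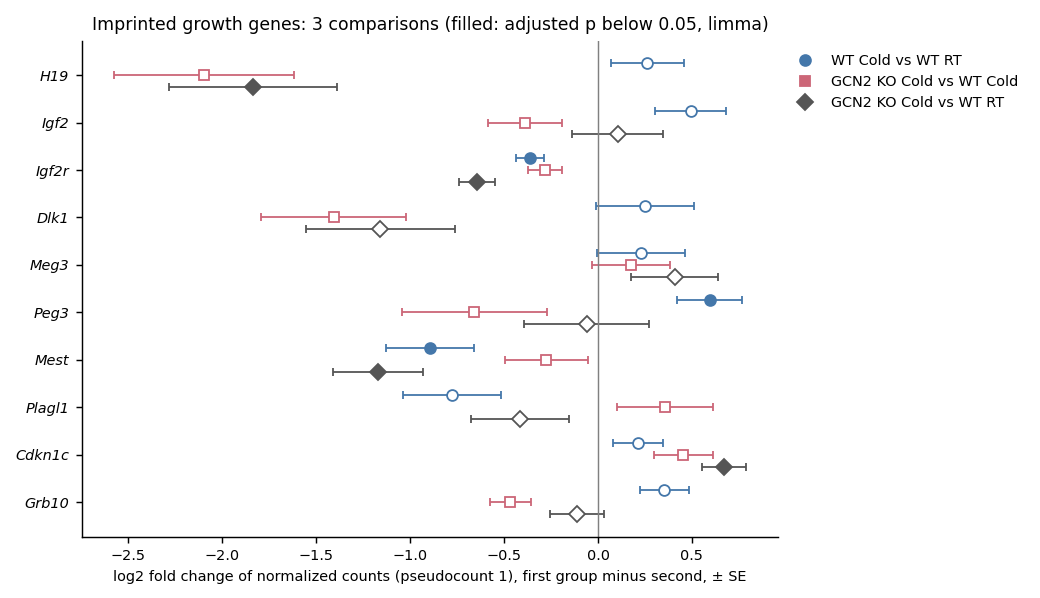
Log2 fold change of each member (horizontal axis, normalized counts with a pseudocount of 1, first group minus second) with its standard error, 3 libraries per group. Filled symbols passed an adjusted p of 0.05 by limma. The largest differences are those of H19, in the labelled knockouts (GCN2 KO Cold), at -2.10 against WT Cold and -1.84 against WT RT.

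H19, a maternally expressed long noncoding RNA (chr7:142575529-142578143, minus strand, GRCm38 as for the genes below), had 47.9, 39.1 and 52.7 CPM in WT RT and 66.9, 40.6 and 52.4 CPM in WT Cold. In the labelled knockouts it had 20.4, 14.3 and 4.84 CPM. The WT groups overlapped, and every labelled knockout library lay below every WT library. H19 was 4.29-fold lower there than in WT Cold, or -2.10 ± 0.48 (SE) on the log2 scale (limma, adjusted p = 0.126; DESeq2, adjusted p = 0.0399; edgeR, adjusted p = 0.132). Against WT RT it fell 3.57-fold, by 1.84 ± 0.45 (SE) on the log2 scale (limma, adjusted p = 0.0145), and without WT RT C the call was lost (adjusted p = 0.0517). Without labelled knockout C, the lowest library, the log2 differences were -1.50 from WT Cold and -1.24 from WT RT. Cold in WT mice gave a difference of 0.26 ± 0.19 on the log2 scale (limma, adjusted p = 0.351).

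Within the labelled knockouts H19 spread widely. Its highest library was 4.21 times its lowest, a ratio that 1.13% of 14041 genes reached in this group, where the median gene had 1.24. In WT RT the ratio was 1.35 and in WT Cold 1.65. Peg3 (2.998) and Dlk1 (2.67) were the members next in spread among the labelled knockouts, and they ran in the other direction, with their highest level in library C, where H19 was lowest.

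Skeletal muscle markers were low together with H19 in the labelled knockouts. The 18 markers, all of them listed, summed to 3245 to 4035 CPM in WT RT and to 3115 to 5171 in WT Cold. In labelled knockout libraries A, B and C they summed to 2057, 1547 and 684, the order of H19. Within the WT groups the orders differed. In WT RT H19 was highest in library C (52.7 CPM), where the markers were lowest (3245). In WT Cold H19 was lowest in library B (40.6 CPM) and the markers in library C (3115). In WT mice 3 of the 18 rose with cold by limma, beside 13.6% of all genes. By DESeq2 5 of them passed, beside 4928 of all 16679 genes. In the labelled knockouts 16 of the 18 lay below every WT Cold library, as 10.7% of all genes did. Against WT Cold 1 of the 18 passed by limma, 5 by DESeq2 and 0 by edgeR, beside 66, 526 and 44 of all 16312 genes. Against WT RT 15 fell by limma, beside 17.8% of all genes. By DESeq2 9 passed and by edgeR 10, beside 5700 and 5671 of all 16560 genes. The defining markers Acta1 and Ckm, a muscle actin and muscle creatine kinase, were well above 0 in every library, at 73.6 to 312 CPM and 34.8 to 183 CPM in the labelled knockouts and at 604 to 939 and 260 to 460 in WT Cold. In bulk tissue, fewer cells of a type and less RNA per cell cannot be told apart.

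Per 1000 CPM of muscle markers, H19 stood at 9.91, 9.21 and 7.08 CPM in the labelled knockouts, at 12.9, 8.58 and 16.8 in WT Cold and at 11.9, 10.96 and 16.2 in WT RT. On this scale the labelled knockouts overlapped WT Cold and lay just below WT RT. The part of muscle RNA in the H19 difference was not tested. The BAT markers Ucp1 and Adipoq were high in every library. Ucp1 had 3592 to 5273 CPM in WT RT, 7970 to 8995 in WT Cold and 9494 to 9693 in the labelled knockouts. The 11 brown adipocyte markers summed to 19569 to 21372, 26102.5 to 28221 and 30949 to 31575 CPM in the same order of groups. Adipoq in the labelled knockouts, at 671 to 794 CPM, overlapped WT Cold, at 647 to 877. The part of these shifts in the H19 difference was not tested.

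**Figure D3:**
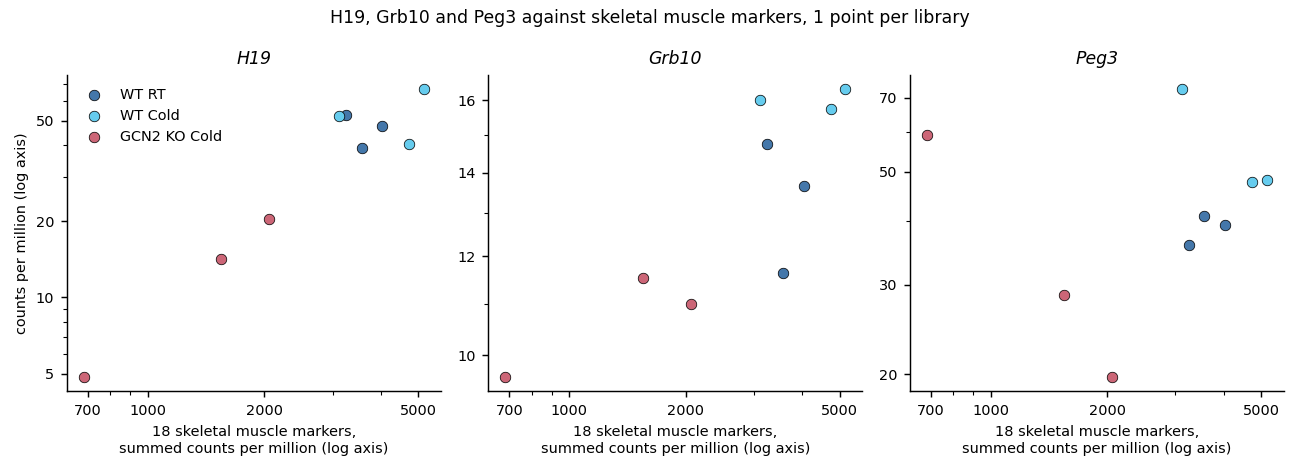
CPM of H19, Grb10 and Peg3 (vertical log axes) against the summed CPM of 18 skeletal muscle markers (horizontal log axis), one point per library. H19 and the markers fall together through the labelled knockouts (GCN2 KO Cold), down to 4.84 and 684 CPM, while Peg3 in the same library is at 59.2 CPM.

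The genes whose level over the 9 libraries was most like that of H19 were found among 14025 named genes by Pearson's r of log2(CPM + 1). They were Myh1 (r = 0.993), a fast myosin heavy chain, Ttn (0.982), the sarcomere protein titin, Wasf2 (0.978), an actin regulator, Rab40c (0.978), a small GTPase, and Itgb1bp2 (0.977), the muscle protein melusin. The 9 libraries fall into 3 groups. As deviations from group means r was 0.989 for Myh1 and 0.915 to 0.928 for the other 4. Over the 6 WT libraries alone r was 0.88 for Myh1 and 0.47 to 0.58 for the other 4. Myh1 itself had 34.4, 27.9 and 10.3 CPM in the labelled knockouts and 80.8 to 128 CPM in WT Cold.

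Igf2, the paternally expressed growth factor encoded 72.6 kb from H19 (chr7:142650766-142666816, minus strand), had 8.50, 6.66 and 10.4 CPM in WT RT and 11.7, 11.6 and 10.2 CPM in WT Cold. In the labelled knockouts it had 5.97, 8.10 and 9.94 CPM. In CPM the WT groups overlapped, with WT RT C at 10.4 and WT Cold C at 10.2. The labelled knockouts overlapped WT RT, and WT Cold only on the authors' scale. None of its differences passed, at 0.49 ± 0.19 for cold in WT (limma, adjusted p = 0.0911), -0.39 ± 0.20 against WT Cold (adjusted p = 0.406) and 0.10 ± 0.24 against WT RT (adjusted p = 0.765) on the log2 scale, and the last of these turned negative with CPM. The first passed without WT RT C (limma, adjusted p = 0.0315). The ratio of H19 to Igf2, each per kb, was 13.1, 13.7 and 11.8 in WT RT and 13.3, 8.17 and 11.99 in WT Cold. It was 7.95, 4.09 and 1.13 in the labelled knockouts, below every WT library.

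Igf2r, the maternally expressed receptor that carries IGF2 to lysosomes for breakdown (chr17:12682406-12769664, minus strand), varied little within groups, its highest library being 1.03, 1.07 and 1.19 times its lowest in WT RT, WT Cold and the labelled knockouts. It had 68.9, 69.3 and 70.9 CPM in WT RT, 53.4, 50.3 and 49.8 CPM in WT Cold, and 37.1, 43.2 and 36.2 CPM in the labelled knockouts. The 3 groups did not overlap, and the level stepped down from one to the next. In WT mice it fell with cold by 0.36 ± 0.07 (SE) on the log2 scale (limma, adjusted p = 0.0101). It was a further -0.28 ± 0.09 in the labelled knockouts against WT Cold, which did not pass (limma, adjusted p = 0.206), and it fell by 0.64 ± 0.09 against WT RT (adjusted p = 0.00165). Its antisense neighbour Airn, the paternally expressed noncoding RNA that silences Igf2r in cis, differed by -0.62 ± 0.26 in WT Cold (limma, adjusted p = 0.108) and fell by 0.87 ± 0.26 in the labelled knockouts against WT RT (adjusted p = 0.0340). That call was lost without WT RT A or B or labelled knockout A or C (highest adjusted p = 0.121). No Igf2r exon base is shared with another gene in GENCODE M21.

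Grb10, a maternally expressed adaptor that dampens insulin and IGF1 receptor signalling (chr11:11930508-12038683, minus strand), had 13.7, 11.6 and 14.8 CPM in WT RT and 16.3, 15.7 and 16.01 CPM in WT Cold. It had 10.99, 11.5 and 9.61 CPM in the labelled knockouts, just below WT RT in CPM and overlapping it on the authors' scale. The WT Cold libraries lay above all the others. The difference was 0.35 ± 0.13 for cold in WT (limma, adjusted p = 0.0815), -0.47 ± 0.11 against WT Cold (adjusted p = 0.133) and -0.11 ± 0.15 against WT RT (adjusted p = 0.585) on the log2 scale, and none passed. Without WT RT C the first did (adjusted p = 0.0490, limma).

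Cdkn1c, which encodes the cyclin-dependent kinase inhibitor p57 and is maternally expressed (chr7:143458339-143461050, minus strand), had 28.0, 26.3 and 23.6 CPM in WT RT and 30.1, 23.6 and 32.0 CPM in WT Cold. It had 34.3, 31.7 and 42.1 CPM in the labelled knockouts, the highest group mean. It was the 1 member that rose against WT RT, by 0.67 ± 0.12 (SE) on the log2 scale (limma, adjusted p = 0.00362). Against WT Cold the difference was 0.46 ± 0.16 (limma, adjusted p = 0.233), and in CPM the lowest labelled knockout, at 31.7, overlapped the highest WT Cold library, at 32.0. Part of its exons, 30.7% of the bases, is shared with an antisense gene, and the strand of the libraries was not stated.

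Plagl1, a paternally expressed zinc finger transcription factor (chr10:13060504-13131694, plus strand), was the lowest member per kb in both WT groups. It had 3.41, 3.02 and 2.00 CPM in WT RT, 1.35, 1.84 and 1.35 CPM in WT Cold, and 2.17, 1.46 and 1.77 CPM in the labelled knockouts. WT Cold lay below WT RT without overlap, and the labelled knockouts overlapped both. The cold difference in WT was -0.78 ± 0.26 on the log2 scale (limma, adjusted p = 0.0596; 0.0457 without WT RT C; 0.0377 with all 3 groups in 1 fit on CPM), and the other comparisons gave 0.36 ± 0.26 (adjusted p = 0.571) and -0.42 ± 0.26 (adjusted p = 0.253).

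Dlk1, a paternally expressed membrane protein of the Notch ligand family that holds preadipocytes undifferentiated (chr12:109452823-109463336, plus strand), had 2.76, 1.92 and 3.09 CPM in WT RT and 2.38, 3.37 and 2.88 CPM in WT Cold. It had 0.651, 0.800 and 1.74 CPM in the labelled knockouts. Those lay below all 6 WT libraries in CPM, while on the authors' scale library C overlapped WT RT. The difference from WT Cold was -1.41 ± 0.39 on the log2 scale (limma, adjusted p = 0.170) and from WT RT -1.16 ± 0.40 (adjusted p = 0.0540), which passed without labelled knockout library C (adjusted p = 0.0121), with CPM (adjusted p = 0.0271), with all 3 groups in 1 fit on CPM (adjusted p = 0.0136) and by DESeq2 (adjusted p = 0.0403). Reads were few, from 18 in a library upward.

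Summed stromal and preadipocyte markers were lower in both cold groups than in WT RT. All 14 were listed, and they summed to 1087 to 1239 CPM in WT RT, 792 to 855 in WT Cold and 687, 608 and 562 in labelled knockout libraries A, B and C, where Dlk1 ran in the opposite order. Their defining gene Pdgfra stood at 11.97 to 18.2 CPM in the labelled knockouts and 20.5 to 24.6 in WT Cold. In WT mice 6 of the 14 fell with cold, beside 14.1% of all genes, and 1 rose, beside 13.6%. In the labelled knockouts 8 fell against WT RT, beside 17.8% of all genes. Against WT Cold 0 of the 14 passed by limma, beside 0.405% of all genes. Of the 14, 5 had an unadjusted p under 0.05, beside 15.3% of all genes. The 10 leukocyte markers, all listed, summed to 283 to 465 CPM in WT RT, 140 to 189 in WT Cold and 101 to 159 in the labelled knockouts, and their defining gene Ptprc was above 0 in every library. Of the 10, 5 fell with cold in WT mice, beside 14.1% of all genes, and 6 fell in the labelled knockouts against WT RT, beside 17.8%. Against WT Cold 0 of 9 tested passed by limma, beside 0.405% of all genes. Of the 9, 2 had an unadjusted p under 0.05, beside 15.3% of all genes. The part of stromal cells or leukocytes in the values of Dlk1, Mest, Plagl1 and Igf2r was not tested.

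Meg3, the maternally expressed noncoding RNA 77.7 kb from Dlk1 on chromosome 12 (chr12:109541001-109571726, plus strand), did not follow it. It had 22.9, 14.1 and 12.7 CPM in WT RT, 19.7, 20.7 and 13.5 CPM in WT Cold and 23.1, 14.7 and 18.4 CPM in the labelled knockouts, and all groups overlapped. No difference passed, the largest being 0.41 ± 0.23 against WT RT (limma, adjusted p = 0.207; 0.0427 without WT RT A). Per kb, Dlk1 over Meg3 was 0.0899 to 0.302 in the labelled knockouts, 0.386 to 0.682 in WT Cold and 0.385 to 0.779 in WT RT.

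Peg3, a paternally expressed zinc finger protein (chr7:6703892-6730431, minus strand), had 39.3, 41.0 and 35.9 CPM in WT RT and 48.2, 47.7 and 72.8 CPM in WT Cold. All WT Cold libraries were above all WT RT libraries, and Peg3 rose by 0.59 ± 0.17 (SE) on the log2 scale (limma, adjusted p = 0.0370). With CPM the call was lost (limma, adjusted p = 0.0537), with all 3 groups in 1 fit on CPM (adjusted p = 0.282) and with no mean-variance trend (adjusted p = 0.0847), as it was when any one WT RT library was left out (adjusted p from 0.0846 to 0.1003). Without WT Cold C, the highest library, the difference was 0.38 on the log2 scale. The labelled knockouts had 19.7, 28.6 and 59.2 CPM and spanned the WT RT range and overlapped WT Cold, with differences of -0.66 ± 0.39 from WT Cold (limma, adjusted p = 0.479) and -0.06 ± 0.33 from WT RT (adjusted p = 0.903). In both cold groups Peg3 was highest where the muscle markers were lowest, in library C of WT Cold (72.8 CPM, markers at 3115) and library C of the labelled knockouts (59.2 CPM, markers at 684). In WT RT both were lowest in library C (35.9 CPM, markers at 3245). Over the 9 libraries Peg3 and the summed markers had r = 0.062, and as deviations from group means r = -0.96, both as a description.

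Mest, a paternally expressed gene for a predicted hydrolase (chr6:30723547-30748465, plus strand), had 2.82, 4.13 and 4.14 CPM in WT RT and 2.00, 1.60 and 1.91 CPM in WT Cold. It had 1.30, 1.36 and 1.52 CPM in the labelled knockouts. Both cold groups lay below WT RT without overlap. Mest fell by 0.90 ± 0.23 (SE) on the log2 scale with cold in WT (limma, adjusted p = 0.0256) and by 1.17 ± 0.24 in the labelled knockouts against WT RT (adjusted p = 0.00682). The cold call in WT was lost without WT Cold A or B or WT RT B or C, with adjusted p from 0.0569 to 0.0876. The labelled knockouts differed from WT Cold by -0.27 ± 0.22 (limma, adjusted p = 0.611) and overlapped it on the authors' scale. Mest shares 912 exon bases, 23.1% of its own, with Copg2 on the opposite strand, and Copg2 fell by 1.13 ± 0.10 in WT Cold (adjusted p = 0.000491) and by 1.02 ± 0.12 in the labelled knockouts against WT RT (adjusted p = 0.000757).

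Other genes described as imprinted were taken from 2 lists, by the parental copy each was listed under. The lists name no tissue, and which copy was expressed in BAT was not measured. Of 48 genes, 37 were listed in any table. With cold in WT mice, 14 of 37 passed, 4 upward and 10 downward, beside 27.7% of all genes, and the median log2 fold change was -0.07. Slc22a3, an organic cation transporter on the maternally expressed list and in the cluster of Igf2r, fell by 2.32 ± 0.10 (limma, adjusted p = 2.87e-05). The paternally expressed Ndn, a growth-restraining MAGE protein, fell by 1.35 ± 0.14 (adjusted p = 0.000815) and Nnat, a small membrane protein, by 0.79 ± 0.18 (adjusted p = 0.0158), a call lost without WT RT B or C and with all 3 groups in 1 fit on CPM. The noncoding RNA Kcnq1ot1, whose cluster holds Cdkn1c, rose by 1.18 ± 0.22 (adjusted p = 0.00745).

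The other genes named by rule passed the limma test as well. On the paternally expressed list Sgce fell by 0.74 and Mcts2 rose by 0.64 on the log2 scale in WT Cold. On the maternally expressed list Ppp1r9a fell by 0.86, Gatm by 0.74 and Trappc9 by 0.70. Tssc4 rose by 0.58 and Ube3a, a ubiquitin ligase, by 0.36. The calls of Mcts2 and Ube3a were each lost on leaving out any of 5 of the 6 libraries, and that of Ube3a also with CPM. The Gatm call was lost without WT Cold A or B or WT RT A or B.

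Between labelled knockouts and WT mice in the cold, 0 of 36 other imprinted genes passed by limma and by edgeR, 1 passed by DESeq2, and 7 had an unadjusted p under 0.05 by limma, beside 15.3% of all genes. DESeq2 called 526 of all 16312 genes here. The 1 imprinted gene was Nnat, with normalized counts of 383, 290 and 143 in the labelled knockouts and 864, 959 and 584 in WT Cold. All of the first lay below all of the second, with a difference of -1.64 ± 0.36 on the log2 scale (limma, adjusted p = 0.116; DESeq2, adjusted p = 7.82e-05). Like H19, Nnat was lowest in labelled knockout library C.

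Against WT RT, 17 of 36 passed in the labelled knockouts, 5 upward and 12 downward, beside 34.2% of all genes. Nnat fell by 2.43 ± 0.31 (limma, adjusted p = 0.000982) and Slc22a3 fell by 2.18 ± 0.15 (adjusted p = 9.97e-05). Ppp1r9a fell by 1.03, Asb4 fell by 0.92, Ndn fell by 0.77, Gatm fell by 0.70 and Trappc9 fell by 0.62. Kcnq1ot1 rose by 1.02, Mcts2 rose by 0.85 and Tssc4 rose by 0.56. The Asb4 call (limma, adjusted p = 0.0494) was lost whichever library was left out (adjusted p from 0.0527 to 0.158) and by DESeq2. The Gatm call was lost without WT RT A or B or labelled knockout B or C. This comparison shares its controls with that of cold in WT mice, so the values stand side by side and are not a repeat.

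**Figure D4:**
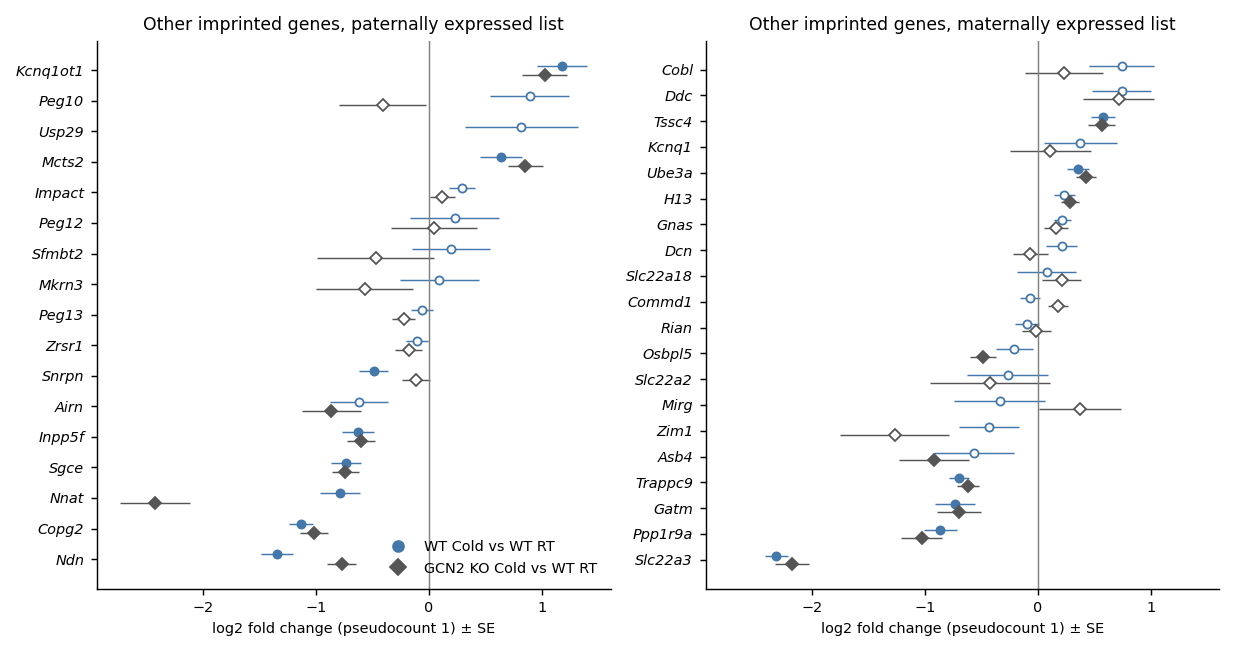
Log2 fold change with standard error of the other imprinted genes (horizontal axis, normalized counts with a pseudocount of 1), 3 libraries per group, for WT Cold and the labelled knockouts (GCN2 KO Cold), both against the same WT RT libraries. Filled symbols passed an adjusted p of 0.05 by limma. Slc22a3 is far left in both, at -2.32 and -2.18, and Nnat at -0.79 and -2.43.

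The IGF axis, the ligands, receptors, binding proteins and adaptors around Igf2, was listed as 19 genes. With cold in WT mice 7 of 18 tested passed, beside 27.7% of all genes, 6 upward (13.6%) and 1 downward (14.1%). Pappa, a protease that frees IGF from binding proteins, rose by 1.97 ± 0.29 on the log2 scale (limma, adjusted p = 0.00288) and Igfbp3, the main carrier of IGF in blood, by 1.62 ± 0.12 (adjusted p = 0.000242). Igfbp5, another binding protein, fell by 1.83 ± 0.16 (adjusted p = 0.000441). The insulin receptor substrate Irs2 rose by 1.701 and the insulin receptor Insr by 0.56, and Igfbp4 rose by 0.53. The Igfbp4 call was lost with CPM and without WT Cold B or C or WT RT B or C, and the Insr call without WT RT B.

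In the labelled knockouts, 0 of 19 genes of the IGF axis passed against WT Cold by limma, DESeq2 or edgeR. Over all 16312 genes these called 66, 526 and 44. Of the 19, 6 had an unadjusted p under 0.05 by limma, beside 15.3% of all genes. Below WT Cold without overlap lay 5, as 10.7% of all genes did. Against WT RT 8 of 18 passed, beside 34.2% of all genes, 3 upward (16.4%) and 5 downward (17.8%). Igfbp5 fell by 2.04 ± 0.12 (limma, adjusted p = 6.54e-05), Pappa rose by 1.62 ± 0.29 (adjusted p = 0.00376) and Igfbp3 rose by 1.24 ± 0.14 (adjusted p = 0.000608). Irs1 fell by 0.76, Igfals, which stabilises the circulating IGF complex, by 0.75, and Igfbp6 by 0.54. The Irs1 call (limma, adjusted p = 0.0498) was lost without any one WT RT library or labelled knockout C, and the Igfals call with all 3 groups in 1 fit on CPM. Without labelled knockout C the Irs1 difference was -0.50. Igf2r, described above, fell in the same comparison.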

How the data were processed

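RNA from BAT of 9 mice, 3 per group, was analysed. According to the study's methods and the submitters' processing notes, the authors enriched polyadenylated RNA, trimmed reads with Trimmomatic 0.36, aligned them with STAR 2.5.2b and counted unique exonic reads with featureCounts of Subread 1.5.2. The deposited values are a signal, read counts divided by DESeq2 size factors, in a table for each pair of groups. Whole reads were recovered for 100% of values (tolerance 0.001), with 0 disagreements between tables. Columns of other samples numbered 0, and the authors' fold change and p-value columns were not used.

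Differences were tested on log2(value + 1) with limma 3.58.1 (trend, 2 groups per fit), adjusted by Benjamini-Hochberg over all genes. DESeq2 1.42.0 and edgeR 4.0.16 on recovered reads, in R 4.3.3, other pseudocounts, filters, scalings and samples were alternatives, and the fits were tested on simulated data. CPM came from recovered reads. Gene coordinates and exon lengths are from GENCODE M21 (GRCm38), matched by identifier for 16900 of 16937 genes. The processing notes name another build for the alignments, and no coordinate was converted. Members and lists were chosen with earlier results of these data known. Named genes are all members, Eif2ak4 and the 5 genes most like H19. From each list at most the 6 largest changes per comparison with an adjusted p under 0.05 are named. The defining cell type markers Acta1, Ckm, Ucp1, Adipoq, Pdgfra and Ptprc are named for their levels only. Airn and Nnat are also given where they did not pass, chosen after their values were seen. Each library is labelled as a biological replicate.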

Additional observations from a re-analysis of the deposited data

How the results depend on the processing

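No paired analysis was possible because the columns carry library codes and no replicate numbers. For cold in WT mice, the count of members that passed went from 3 to 0 and that of other imprinted genes from 14 to 4 once a log2 fold change of 1 was also required. Leaving out each library gave 1 to 4 members and 8 to 14 other imprinted genes, the lowest of both without WT RT B. For labelled knockouts against WT mice in the cold, the 0 members became 1 by DESeq2 (H19) and 3 with all 3 groups in 1 fit on CPM (H19, Igf2r and Grb10), which changes the scaling as well as the groups, and stayed 0 with CPM alone, and the 0 other imprinted genes became 1 in both (Nnat), while leaving out each library gave 0 to 0 members. Over all genes limma called 66, DESeq2 526 and edgeR 44 there. Against WT RT, the fold threshold left 2 of 4 members and 5 of 17 other imprinted genes, and leaving out each library gave 3 to 5 members and 12 to 15 other imprinted genes. Differences near 0 against WT RT changed sign. Igf2 was -0.0981 with CPM, whether 2 or 3 groups were in the fit, and from -0.0807 to 0.305 with a library left out, negative without WT RT B or without labelled knockout C. Peg3 was 0.0946 by DESeq2 and 0.0676 by edgeR, and from -0.502 to 0.297 with a library left out, positive without labelled knockout A or B. Among log2 fold changes of all members and named genes, leaving out a library kept the direction and the side of the threshold in 422 cases, lost a call in 67, gained one in 5 and turned the sign in 4. Other alternatives gave 711, 20, 8 and 4. The causes were not tested. At the lowest depths, 18 reads of Dlk1 and 36 of Mest, counting error limits what could be seen.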

Other observations

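Genes that keep imprints in place were also listed. Of 16 genes for imprint maintenance, such as DNA methyltransferases, 1 passed with cold in WT mice, where Dnmt3a fell by 0.39 ± 0.10 on the log2 scale (limma, adjusted p = 0.0250), a call lost without WT Cold A or any one WT RT library. Over all genes 14.1% fell. Between labelled knockouts and WT Cold none of the 16 passed by limma, beside 0.405% of all genes, nor by DESeq2 or edgeR. Of the 16, 2 had an unadjusted p under 0.05 by limma, beside 15.3% of all genes. Against WT RT 3 fell, beside 17.8% of all genes. These were Dnmt1, the maintenance methyltransferase, by 0.72 ± 0.12 (adjusted p = 0.00321), Smchd1, a chromatin protein, by 0.58 ± 0.14 (adjusted p = 0.0134), a call lost without WT RT B or C, and Dnmt3a by 0.55 ± 0.10 (adjusted p = 0.00334).

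Close relatives of the members were listed as well, with 6 of them measured. Cdkn1a, which encodes the kinase inhibitor p21 and is a relative of Cdkn1c, rose by 2.21 ± 0.13 on the log2 scale with cold in WT mice (limma, adjusted p = 8.33e-05) and by 2.27 ± 0.14 in the labelled knockouts against the same WT RT libraries (adjusted p = 6.90e-05). Grb14, a relative of Grb10, fell by 1.74 ± 0.11 (adjusted p = 0.000121) and by 1.31 ± 0.13 (adjusted p = 0.000384). Against WT Cold, 0 of the 6 passed by limma, DESeq2 and edgeR, beside 66, 526 and 44 of all 16312 genes. Of the 6, 1 had an unadjusted p under 0.05 by limma, beside 15.3% of all genes.

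Of 12 genes of the Notch pathway, to whose ligand family Dlk1 belongs, 3 rose and 2 fell with cold in WT mice. Over all genes 13.6% rose and 14.1% fell. Jag2, a ligand, rose by 0.82, the endothelial receptor Notch4 by 0.77 and the target Heyl by 0.74, while Rbpj fell by 0.44 and Notch2 by 0.32. The Notch2 call was lost by DESeq2 and on leaving out any of 5 of the 6 libraries, that of Heyl without WT Cold B, and that of Rbpj without WT Cold B or WT RT B. In the labelled knockouts, 0 of the 12 passed against WT Cold by limma and edgeR and 1 by DESeq2. Over all 16312 genes limma called 66, edgeR 44 and DESeq2 526. Of the 12, 4 had an unadjusted p under 0.05 by limma, beside 15.3% of all genes. Against WT RT Jag2 rose by 0.73 and Rbpj, Notch2 and Notch3 fell by 0.83, 0.64 and 0.51, beside 16.4% of all genes higher and 17.8% lower, and the calls of Notch2 and Notch3 were lost without any one WT RT library.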
